A study of Arabidopsis thaliana with 28 samples.

Results

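The genes described here are the 55 genes whose transcript level in roots was lowest at 12 h after wounding, by a margin set on the measured values. For each tissue and time the log2 of the signal plus 10 was averaged over the arrays. A probe set was taken where its root mean at 12 h lay at least 0.7 (log2) below its mean at each other root time, where its signal exceeded 40 on both 24 h root arrays, and where the platform annotation gave it 1 gene. A few named photosynthesis genes and the UGT glycosyltransferases were to be left out, which removed 0 probe sets. Of 13513 probe sets with 1 gene, 55 met the rule, each of a different gene, and 130 of all 22810 probe sets met it when the annotation was ignored. The root values that chose these genes are given below as a description, with no test, and tests were made only in shoots, which the rule did not use.

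The samples were total RNA of roots and shoots of Arabidopsis thaliana Col-0, hybridised to 28 ATH1 arrays, with 2 arrays at each of 0.25, 0.5, 1, 3, 6, 12 and 24 h in each tissue. All plants were grown on Murashige and Skoog medium at 24 °C with 16 h days and were wounded by pin puncture at day 16, when 3 h of light had passed. All groups were wounded, and unwounded plants were not analysed here, so hours since wounding and time of day cannot be told apart. The punctured organ is not named in the labels, nor is it said whether replicates came from separate cultures, so p-values measure the spread between these arrays, which may be technical.

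Roots take up water and ions through an epidermis that keeps making and loosening wall material, with secreted peroxidases, glycosyl hydrolases, expansins and pectin-modifying proteins at work outside the cell. Auxin drives much of root growth, and GH3 enzymes lower its free level by joining it to amino acids. Photosystem genes are mainly leaf genes that roots transcribe at a low level, and many plant genes follow the light and dark periods or the circadian clock.

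The arrays of each group resembled each other, with Pearson correlations between replicates of 0.971 to 0.992 in roots and 0.967 to 0.989 in shoots, taken over genes, which are no independent replicates. The 3-prime to 5-prime signal ratio of the actin control, a measure of RNA integrity, was 2.24 and 2.28 on the 12 h root arrays, within the 2.03 to 2.96 of the other root arrays. Of the other control pairs in roots, the second GAPDH pair was 0.929 and 1.38 at 12 h, against 1.06 to 1.78, and the rest lay within the range of other times. In shoots the first actin ratio was 4.15 and 6.17 at 24 h against 2.22 to 3.68 at the other times. Shoot results were also computed without the 24 h arrays. The ubiquitin ratio on the 12 h shoot arrays was 2.49 and 2.63, against 1.55 to 2.52 at the other shoot times, and its second pair 3.89 and 4.58, against 2.25 to 4.38. The second actin pair reached 30.07 on 1 shoot array, outside 12 h. The part of these ratios in the shoot results was not tested. The tissue labels were borne out by the nuclear photosynthesis genes outside the 55, whose summed signal over 6 probe sets was 265 to 669 in roots and 21230 to 33310 in shoots. The 2 root hair markers measured summed to 70.4 to 140.1 in roots and 15.1 to 39.0 in shoots, and no endodermis, xylem, phloem or root cap marker of the lists used had a probe set with 1 gene that was measured. In whole tissue, fewer cells of a type and less RNA per cell cannot be told apart.

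The distance of the 12 h root mean below the next lowest root time was 0.71 to 2.61 (log2), with a median of 0.86, and reached 1 in 14 genes. Against the mean of the 6 other root times the median difference was -1.29, while over all 16261 probe sets measured it was -0.008. In 48 of the 55 genes both 12 h root arrays lay below all 12 other root arrays, which held for 7.93% of all probe sets measured. The rule chose for this, so nothing is read from the difference. The other 7 genes overlapped: AT5G44400, AT2G04795, AT2G33850, AT5G38980, AT5G14650, GAT1_2.1 and CCL. Among them GAT1_2.1, a glutamine amidotransferase-like gene, had signals of 31.9 and 123 at 12 h and CCL, a CCR-like gene under clock control, 28.3 and 86.8, so that 1 array of the pair was low and the other within the range of other times.

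The lower of the 2 root arrays at 12 h was not the same in all genes. Replicate 1 was the lower in 29 genes and replicate 2 in 26, and the median SD between the 12 h arrays was 0.172 (log2). The genes were chosen on the mean of both arrays, so this split cannot show whether 1 array was shifted. The choice of genes did depend on these arrays: without replicate 2 at 12 h the rule took 93 genes, 48 of them among the 55, and without replicate 1 it took 52, 38 of them among the 55. At 2 other times the replicates differed in 1 direction in most of the genes. Replicate 1 was the higher in 47 of the 55 genes at 0.5 h and in 46 at 6 h, where the median SD was 0.210 and 0.307 (log2), against 0.101 and 0.129 over all probe sets. At 1 and 3 h replicate 1 was the higher in 21 genes each time, and the median SD was 0.115 and 0.107.

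The nearest genes on either side of the 0.7 limit were close in distance. AT5G60680 (0.72), GAT1_2.1 (0.71) and AT3G26550 (0.71) lay just inside, and AT4G13580 (0.70), AT3G24450 (0.70) and AT3G22060 (0.69) just outside. Over all measured probe sets 146, or 0.898%, stood at least 0.7 below every other root time at 12 h, against at most 10 at any other root time. In shoots such distances were found at several times, in 121 probe sets at 1 h, 87 at 12 h and 65 at 6 h.

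**Figure D1:**
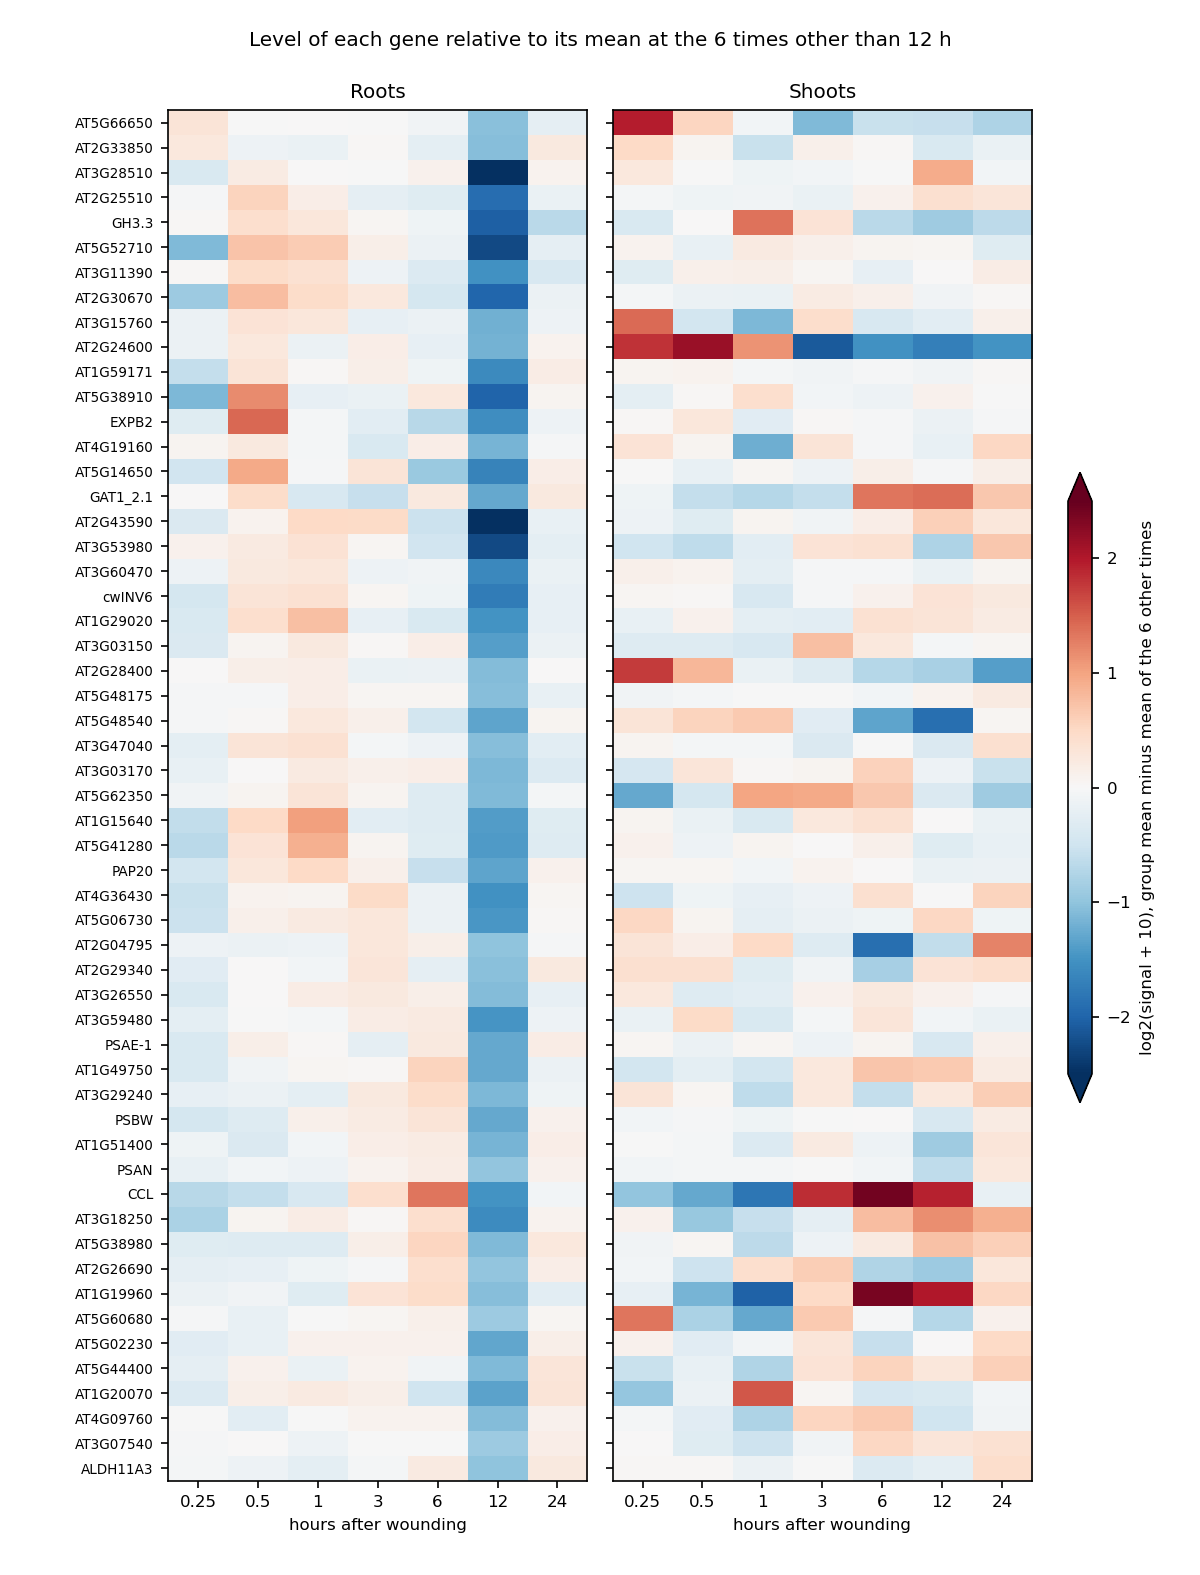
Group means of the 55 genes in roots (left) and shoots (right), each minus the gene's mean over the 6 times other than 12 h, in log2(signal + 10); rows are ordered by the time of the highest root mean. The 12 h root column, used to choose the genes, is low in every row, from -0.91 to -2.999, while the shoot column at 12 h runs from -1.88 to 1.99.

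Of the groups given a role among the 55, genes of the cell wall and of secreted proteins were the largest, with 14 members. Roles were not given to the other probe sets, so this count has no share of all beside it and nothing is read from it. Of these 11 were at least 2-fold higher in roots than in shoots, as were 54.5% of the 55 and 17.9% of all probe sets measured. The rule required a root signal above 40 at 24 h, which bears on the shares of the chosen genes. Roles of genes known only by a locus are background on the protein family. AT2G43590, a chitinase-family gene, had the highest root mean of all 55 (1160 ± 585, SD over 14 arrays) and signals of 170 and 195 at 12 h, against 417.7 to 1803 on the other 12 root arrays, with a median of 1373. AT3G53980, of the lipid-transfer protein type, had 173 and 128 at 12 h, against 451 to 1047 with a median of 790.4. cwINV6, which despite its name as a cell wall invertase encodes a fructan exohydrolase, had 155.5 and 180 at 12 h, against 366 to 789 with a median of 596. In all 3 genes the 12 h arrays were far below every other root array.

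Among the 55 were 2 peroxidase genes of the class III family, which oxidises wall phenolics. AT4G36430 had 260 and 198 at 12 h, against 427 to 943.5 with a median of 668, and AT5G06730 had 30.1 and 22.2, against 48.9 to 117 with a median of 90.7. Neither overlapped the other times. EXPB2, a beta-expansin that loosens walls, had 20.0 and 18.7 at 12 h, against 34.2 to 275 with a median of 65.2; its highest root mean was at 0.5 h. AT5G38910, a germin-like gene, had 30.7 and 28.3 at 12 h, against 37.1 to 447 with a median of 143.

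AT5G62350, a pectin methylesterase inhibitor gene, was the second most abundant of the 55 in roots, with 485 and 493 at 12 h against 818 to 1399, with a median of 1100.0. AT5G14650, a polygalacturonase-family gene, had 45.6 and 33.4 at 12 h against a lowest value of 45.5 elsewhere, so the ranges touched. AT5G44400, of the berberine bridge enzyme family, had 122 and 51.8 at 12 h, against 102 to 258, and overlapped through replicate 1. The glycosyl hydrolase AT3G47040 and PAP20, a purple acid phosphatase, also belong here; PAP20 was weak, with 9.98 and 14.2 at 12 h, against 21.2 to 76.8. The DUF26-type secreted genes AT5G48540 and AT5G41280 had 135 and 114 at 12 h, against 222 to 416.5, and 116 and 83.02, against 154 to 538. Of these 14 genes 11 had their highest root mean at 0.5 or 1 h, where 11.3% and 12.6% of all probe sets had theirs. So did 23 of the 30 genes among the 55 that were at least 2-fold higher in roots than in shoots. Root values chose these genes, and by the rule none can be highest at 12 h, where 22.1% of all probe sets were. The shares are therefore not alike, and nothing is read from these counts.

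Among the metabolic and transport genes (11 members) was GH3.3, an auxin-amido synthetase that conjugates auxin to amino acids. It was the only member of the auxin response list of 11 genes, of which 4 had a measured probe set with 1 gene. GH3.3 had 96.0 and 87.8 at 12 h in roots, against 200.5 to 640.2 with a median of 429, and no overlap. Its next lowest time was 24 h, and its highest was 0.5 h. Of the other measured genes of that list, IAA29, LBD16 and LBD29 stood at -0.27, 0.02 and -0.77 (log2) in roots at 12 h against the mean of the other times, and in none of them did the 12 h root arrays lie below all others.

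Further metabolic genes spanned weak to moderate levels. AT3G59480, a fructokinase-like gene, had 15.5 and 23.2 at 12 h, against 58.4 to 88.3 with a median of 71.5. AT5G52710, with a heavy-metal-associated domain, had 17.4 and 18.0, against 40.5 to 251 with a median of 137. These 12 h signals were below the 40th percentile of the array (25.9 to 29.0 in roots), as in 9 of the 55 genes, so their size at 12 h is close to the lowest levels measured.

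AT2G30670 and AT2G29340 are both of the tropinone reductase-like family of short-chain dehydrogenases, and they differed in tissue. AT2G30670 had 56.0 and 47.2 in roots at 12 h, against up to 513 with a median of 266.5 and no overlap, and AT2G29340 had 48.0 and 66.6, against 86.5 to 220.0 with a median of 124. The first was higher in roots than in shoots by 2.70 (log2) and the other lower by a difference of -1.02. ALDH11A3, a non-phosphorylating glyceraldehyde-3-phosphate dehydrogenase, was weak in roots, with 10.3 and 13.4 at 12 h, against 17.8 to 54.5, and had a mean of 1344 in shoots. AT5G02230, of the HAD hydrolase family, had 102 and 123 at 12 h, against 211 to 465.5. AT4G09760, AT2G26690 and AT5G66650, described with the shoots below, had 12 h root means of 46.3, 27.6 and 41.2 and lowest values elsewhere of 84.6, 40.4 and 53.7.

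The signalling and binding genes (5 members) all had both 12 h root arrays below every other root array, as did 87.3% of the 55. Of all probe sets 7.93% did, and the rule chose for this. The EF-hand gene AT1G29020 had 181 and 143 at 12 h, against 318 to 818 with a median of 413. The C1-domain genes AT3G11390 and AT3G26550 had 28.5 and 24.9, against 47.8 to 135, and 31.8 and 38.5, against 54.2 to 140. AT2G24600, an ankyrin-repeat gene, had 33.4 and 30.6, against 57.9 to 109. AT1G49750, a leucine-rich repeat gene, had 41.1 and 37.5, against 78.8 to 249.8.

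The largest distance of all belonged to AT3G28510, an AAA-type ATPase gene. Its root signals were 30.8 and 43.9 at 12 h, against 273.7 to 591 on the other root arrays with a median of 355, so 12 h was 2.61 (log2) below the next lowest time. AT3G60470, of the DUF247 family, had 33.5 and 27.1, against 79.7 to 149 with a median of 111. The formin gene AT3G07540, of a family that nucleates actin filaments, had 47.0 and 35.7, against 75.8 to 101. AT2G28400 and AT5G60680, both of the DUF584 family, had 48.0 and 50.3, against 79.8 to 165, and 119 and 152, against 207 to 341.5.

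Genes with no role given numbered 15. AT2G25510 had 47.8 and 44.6 in roots at 12 h, against 138 to 306 with a median of 188, and the largest distance among them (1.61). AT1G19960 was among the most abundant of the 55, with 404 and 477 at 12 h, against 692 to 1300.0 with a median of 855. AT3G29240 and AT4G19160 also had high root means, 709 and 643, and each had a wide pair at 12 h, 234 and 489 for AT3G29240 and 229 and 397 for AT4G19160. AT3G03150 and AT3G03170 lie close together in the genome, with 1 coding gene between them, and differed in tissue: AT3G03150 was lower in roots than in shoots by a difference of -1.11 (log2), and AT3G03170 was higher in roots by 2.07. The others without a role, AT3G15760, AT1G59171, AT5G48175, AT2G04795, AT1G20070, AT2G33850, AT3G18250, AT5G38980 and AT1G15640, had 12 h root means between 8.35 and 82.7, and AT1G59171, the weakest, had 8.65 and 8.05 at 12 h, against 19.5 to 77.4.

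**Figure D2:**
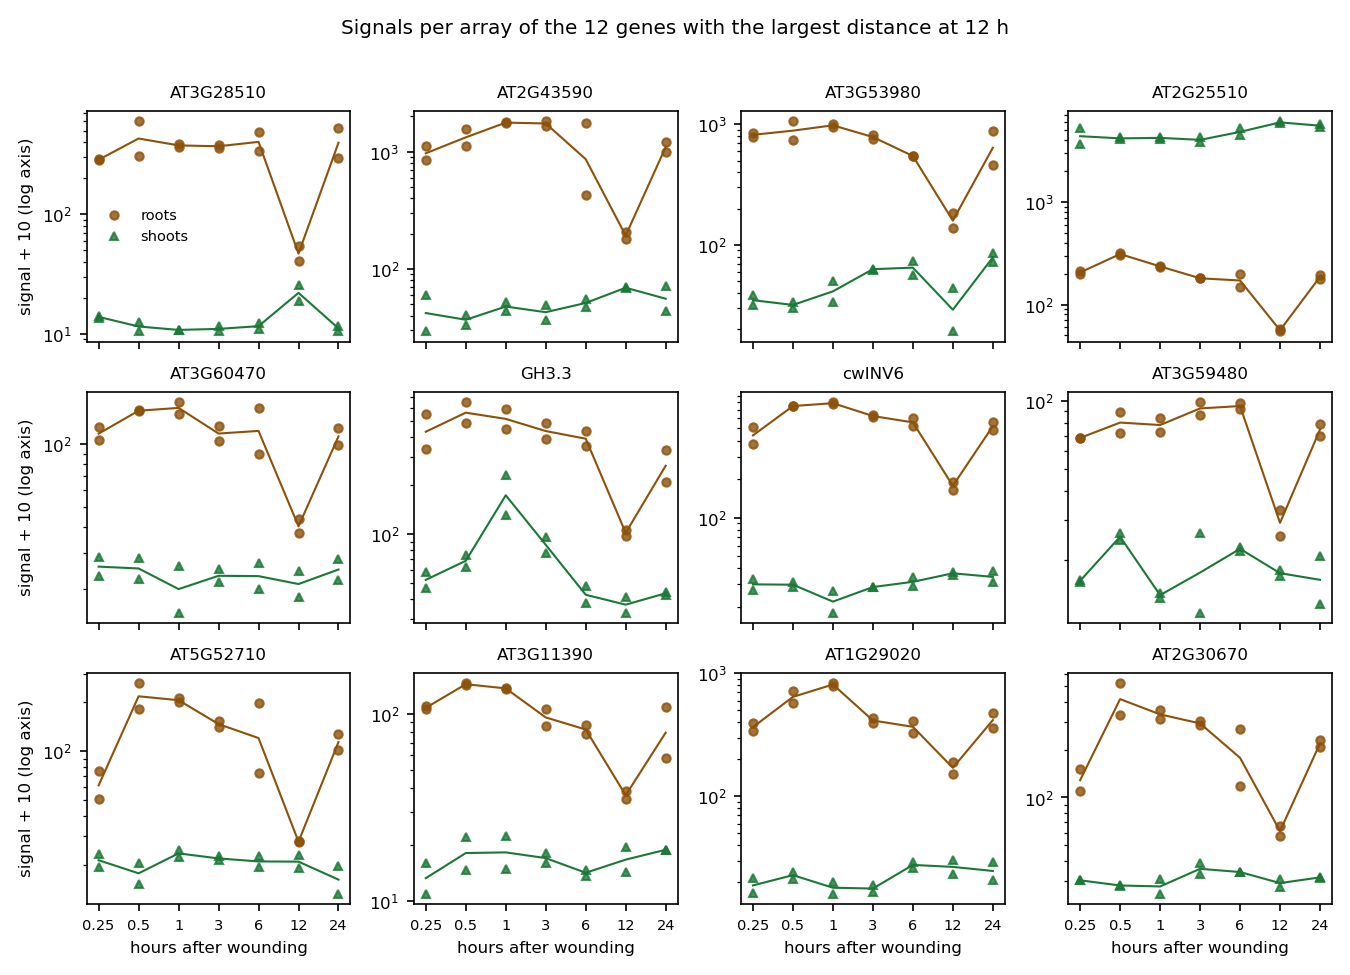
Signal plus 10 on a log axis for the 12 genes with the largest distance at 12 h, by hours after wounding; brown circles are root arrays, green triangles shoot arrays (2 of each per time) and lines join the group means. The root points at 12 h lie below all other root points in each panel, and AT2G25510 is the panel in which shoots lie above roots.

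Photosystem genes made up 4 of the 55, and they were leaf genes at low level in roots. PSAE-1 and PSAN encode subunits of photosystem I, PSBW a subunit of photosystem II and AT1G51400 a small photosystem II protein. Their root means were 1.26% to 2.88% of their shoot means. PSBW had 47.8 and 42.7 in roots at 12 h, against 56.1 to 180.0 with a median of 137, and AT1G51400 had 40.7 and 49.9, against 69.3 to 149 with a median of 120.3. PSAE-1 had 26.7 and 23.3, against 33.0 to 102 with a median of 83.8, and PSAN 23.0 and 35.4, against 46.2 to 80.5 with a median of 70.8. None of the 4 overlapped, as held for 87.3% of the 55, and all 4 had their highest root mean at 6 h. In PSAE-1, PSBW and PSAN the lowest other array was replicate 2 at 0.25 h. The 12 h signals of PSAE-1 and PSAN lay near the 40th percentile of the array (25.9 to 29.0 in roots).

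The photosynthesis genes outside the 55 were also low in sum in roots at 12 h. The summed signal of their 6 measured probe sets was 265 and 347 at 12 h, against 367 to 669 on the other 12 root arrays. These are PSBY and the genes that the rule names to be left out, LHCB4.1, LHCB4.2, RCA, PRK and SBPASE. None of them reached the limit of 0.7. LHCB4.1 (root mean 197.9) and RCA (123.6) weigh most in the sum. Of 44 genes in the nuclear photosynthesis list 9 had a measured probe set with 1 gene, and 3 of these belong to the 55. The 6 others had a median root difference of -0.60 (log2) at 12 h from the mean of other times, and in 2 of them, LHCB4.2 and RCA, both 12 h arrays lay below all others, as in 7.93% of all probe sets. The part of shoot-type transcripts in the root level of the photosystem genes was not tested. In the cell cycle list both measured genes, AUR1 and AUR2, had 12 h root arrays below all others (7.93% of all probe sets did), with differences of -0.36 and -0.64. None of the 8 measured rapid stress and touch genes did, and their median root difference was 0.006.

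**Figure D3:**
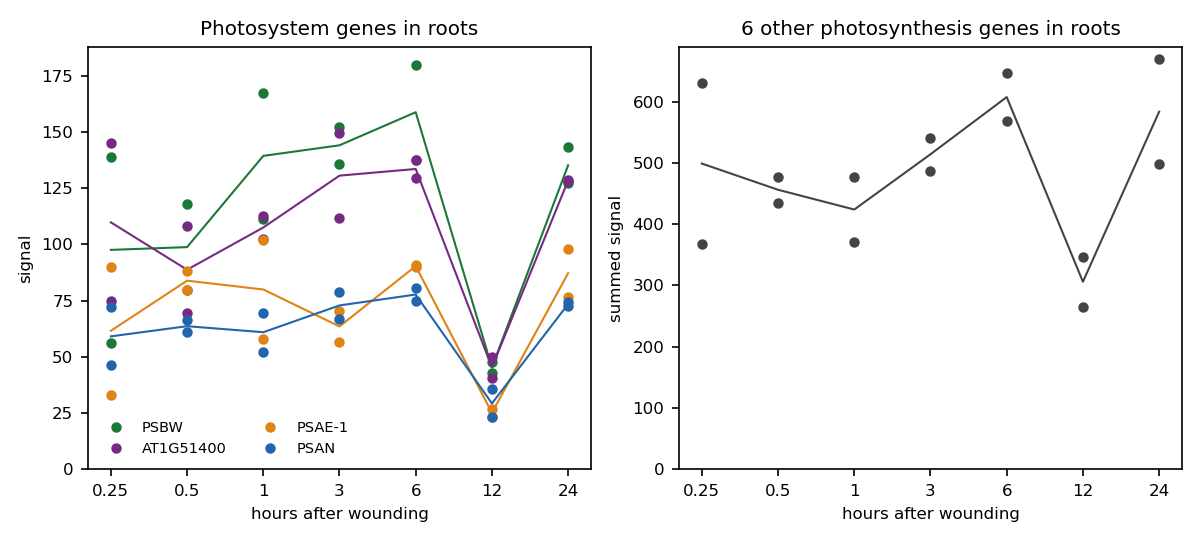
Left, root signals of the 4 photosystem genes by hours after wounding; right, the summed root signal of the 6 measured photosynthesis probe sets outside the 55. Points are single arrays and lines join the means of 2. Both panels are lowest at 12 h, where the sum was 265 and 347.

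Across tissues the 55 leaned towards roots. In 30 genes (54.5%) the mean over the 14 root arrays was at least 2-fold above that over the 14 shoot arrays (in log2), which held for 17.9% of all probe sets measured; the requirement of a root signal above 40 at 24 h bears on this share. In 13 genes (23.6%, against 15.6% of all) shoots were at least 2-fold above roots, and 12 genes lay within 2-fold. Only 36 of the 55 were above the 40th percentile of the array on both arrays of some shoot group. AT3G28510 marked one end, with a mean of 327.6 in roots and 3.16 in shoots, and PSAE-1 the other, with 70.2 in roots and 5577 in shoots.

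The time of the highest root level was counted for the chosen genes, and also for those higher in roots or higher in shoots. The highest root mean was at 0.5 h in 14 genes (25.5%, against 11.3% of all probe sets), at 1 h in 15 (27.3%, against 12.6%), at 6 h in 13 (23.6%, against 17.4%), at 24 h in 6, at 3 h in 5 and at 0.25 h in 2. Of the 29 genes highest at 0.5 or 1 h, 23 were at least 2-fold higher in roots than in shoots, while 8 of the 13 highest at 6 h were at least 2-fold higher in shoots. By the rule none of the chosen genes can be highest at 12 h, where 22.1% of all probe sets were. The shares of the chosen genes and of all probe sets are therefore not alike, and no excess at any time is read from them. All these counts are over genes chosen on the same root arrays, and no test was made of the counts. The matching shares of all probe sets, split by tissue, are not given, so no link between time and tissue is read from the counts. Replicate 1 was the higher root array in 47 of the genes at 0.5 h, in 46 at 6 h and in 21 at 1 h. Some maxima at 0.5 or 6 h may therefore rest mainly on 1 array. The strongest early maximum was that of EXPB2, 1.44 (log2) at 0.5 h above its mean over the times other than 12 h, and the strongest at 6 h that of CCL, at 1.35.

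**Figure D4:**
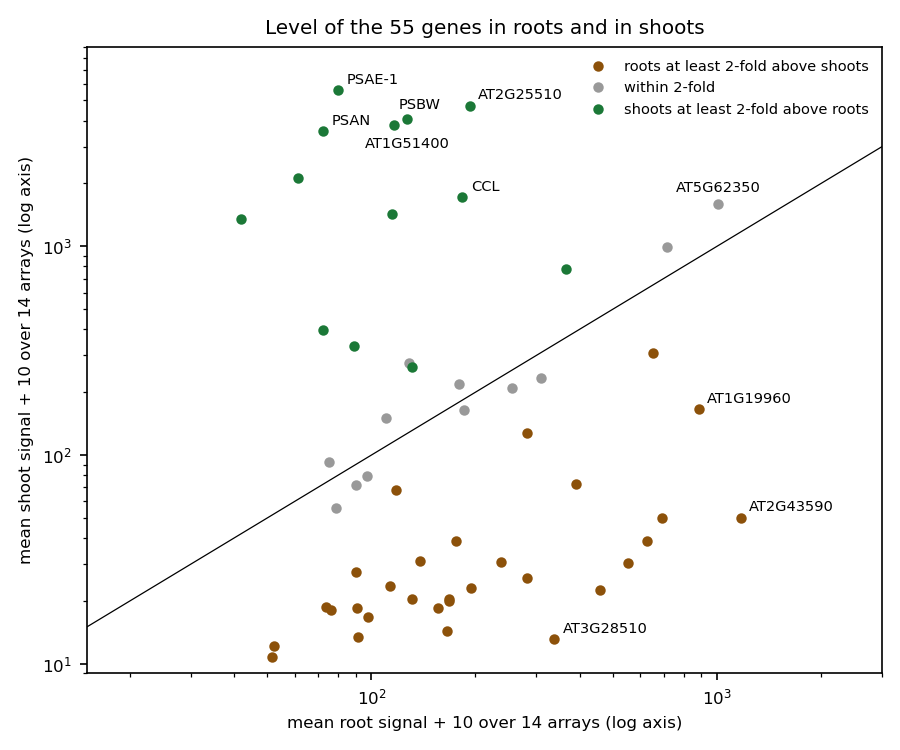
Mean root signal against mean shoot signal of the 55 genes, each plus 10 and over 14 arrays, on log axes; the line marks equal levels and colours mark a 2-fold difference. The 30 genes higher in roots lie below the line and the 13 higher in shoots, photosystem genes among them, above it.

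In shoots most of the 55 genes were not called lower at 12 h. Set against the mean of the 6 other shoot times in limma, 12 of the 55 were lower at 12 h (21.8%, where 12.2% of all probe sets measured were lower) and 8 were higher (14.5%, where 14% of all were higher), at a Benjamini-Hochberg adjusted p under 0.05. The median change of the 55 was -0.08 (log2), and that of all probe sets 0.02. In either direction 20 passed (36.4%, against 26.2% of all), 18 of them among the 36 genes above the 40th percentile in shoots. The other 19 genes were weak in shoots, where a fall can hardly show, and they count in these shares and in the median. No gene stood at least 0.7 below every other shoot time at 12 h, nor at least 0.7 above (0 of 55 each, where 0.535% and 0.541% of all probe sets did). The counts rested on both 12 h shoot arrays: without replicate 2 there were 7 lower and 2 higher, and without replicate 1 there were 8 lower and 3 higher.

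AT5G48540, the DUF26-type secreted gene, was the strongest fall in shoots. It had 46.8 and 63.3 at 12 h in shoots, against 80.2 to 423.5 on the other 12 shoot arrays with a median of 252, a log2 change of -1.88 ± 0.13 (SE; limma adjusted p = 3.72e-10). The photosystem genes AT1G51400 and PSAN also fell. AT1G51400 had 2218 and 2111 at 12 h in shoots, against 2950 to 5470 with a median of 3972 (-0.88 ± 0.16, limma adjusted p = 0.000218), and PSAN had 2364 and 2438, against 3253 to 4660 with a median of 3616 (-0.63 ± 0.13, limma adjusted p = 0.00062). PSBW and PSAE-1 did not pass, at -0.40 (limma adjusted p = 0.167) and -0.40 (0.184).

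AT2G26690, an NPF-type transporter gene, had 206.9 and 200.2 at 12 h in shoots, against 219 to 612 with a median of 417 (-0.91 ± 0.29, limma adjusted p = 0.0266); leaving out either 12 h shoot array ended this call (adjusted p = 0.149 and 0.168). With AT5G48540, AT1G51400, PSAN and PSBW it was 1 of 5 genes (9.09%) whose 12 h shoot arrays both lay below all other shoot arrays, as did 3.74% of all probe sets. GH3.3 had 22.8 and 31.1 at 12 h in shoots, against 27.4 to 220.2 with a median of 50.5 (-0.88 ± 0.21, limma adjusted p = 0.0036), and overlapped the other times. Its call ended without replicate 1 at 12 h (adjusted p = 0.107). AT3G53980 changed by -0.77 ± 0.24 (limma adjusted p = 0.0239), with 34.1 and 9.22 at 12 h in shoots, against 20.2 to 76.3. Its change was -0.17 without replicate 2 at 12 h (adjusted p = 0.732), and its call ended without the 24 h shoot arrays (0.0679).

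The other 6 genes lower in shoots at 12 h had a still lower mean at another shoot time, so that the comparison rested on high levels elsewhere. AT2G24600 had 55.2 and 49.8 at 12 h in shoots, against 31.2 to 965 with a median of 235 (-1.71 ± 0.14, limma adjusted p = 8.26e-09), and its 6 arrays at 0.25, 0.5 and 1 h held between 398 and 965. AT2G28400 (-0.80), AT5G60680 (-0.71) and AT5G66650 (-0.58), which encodes a mitochondrial calcium uniporter family protein, all had their highest shoot mean at 0.25 h. The choline kinase gene AT4G09760 (-0.50) and AT5G62350 (-0.35) completed the 12. Leaving out 1 of the 12 h shoot arrays ended the call for AT2G28400 (-0.59 without replicate 2) and AT5G66650 (-0.29 without replicate 2). The same held for AT5G60680 (-0.54 without replicate 1) and AT4G09760 (-0.34 without replicate 1). For AT5G62350 either did (-0.26 without replicate 1, -0.45 without replicate 2), and so did leaving out some arrays of other shoot times.

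Higher in shoots at 12 h were AT1G19960 and CCL, by more than any other of the 55 that passed. AT1G19960 had 362 and 300.2 at 12 h in shoots, against 9.66 to 472 with a median of 89.8 (1.99 ± 0.12, limma adjusted p = 6.94e-11). CCL had 3044 and 3072, against 180.4 to 4765 with a median of 542 (1.93 ± 0.33, limma adjusted p = 0.000285). Both genes were higher still at 6 h in shoots, and both had their highest root mean at 6 h as well. AT3G18250 (1.17 ± 0.34, limma adjusted p = 0.0177), AT5G38980 (0.73) and AT1G49750 (0.65) also passed, and each lost the call when either 12 h shoot array was left out (adjusted p between 0.0729 and 0.197).

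AT3G28510 and AT2G25510 were above all other shoot arrays at 12 h, the 2 such genes among the 55 (3.64%, against 5.63% of all probe sets). AT2G25510 had 5778 and 6075 at 12 h in shoots, against 3654 to 5719 with a median of 4266 (0.41 ± 0.11, limma adjusted p = 0.00706, and 0.0532 and 0.11 with 1 of the 12 h shoot arrays left out). AT3G28510 had 8.81 and 15.7, against 0.445 to 4.21 (0.93 ± 0.20, limma adjusted p = 0.00136), and AT5G06730 7.87 and 7.68, against 0.376 to 12.1 (0.51 ± 0.16, limma adjusted p = 0.0181), overlapping the 0.25 h shoot arrays at 4.26 and 12.1. The call of AT3G28510 ended without replicate 2 at 12 h (adjusted p = 0.0889) and that of AT5G06730 without replicate 1 (0.134) or replicate 2 (0.121). These shoot signals were below the 40th percentile of the arrays (21.4 to 27.1), where the size of a change depends on the offset of the log scale.

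Over the 7 times as a whole, 34 of the 55 genes (61.8%) varied in shoots by the moderated F-test, a share near the 61.6% of all probe sets. The time of the lowest shoot mean was 1 h in 22 genes (40%, against 20.1% of all) and 12 h in 11 (20%, against 12.3%). Among the lists, 6 of the 8 measured rapid stress and touch genes were lower in shoots at 12 h and 1 was higher, and of the 9 photosynthesis genes 2 were lower, LHCB4.2 (-1.61) and PSAN, and none was higher.

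**Figure D5:**
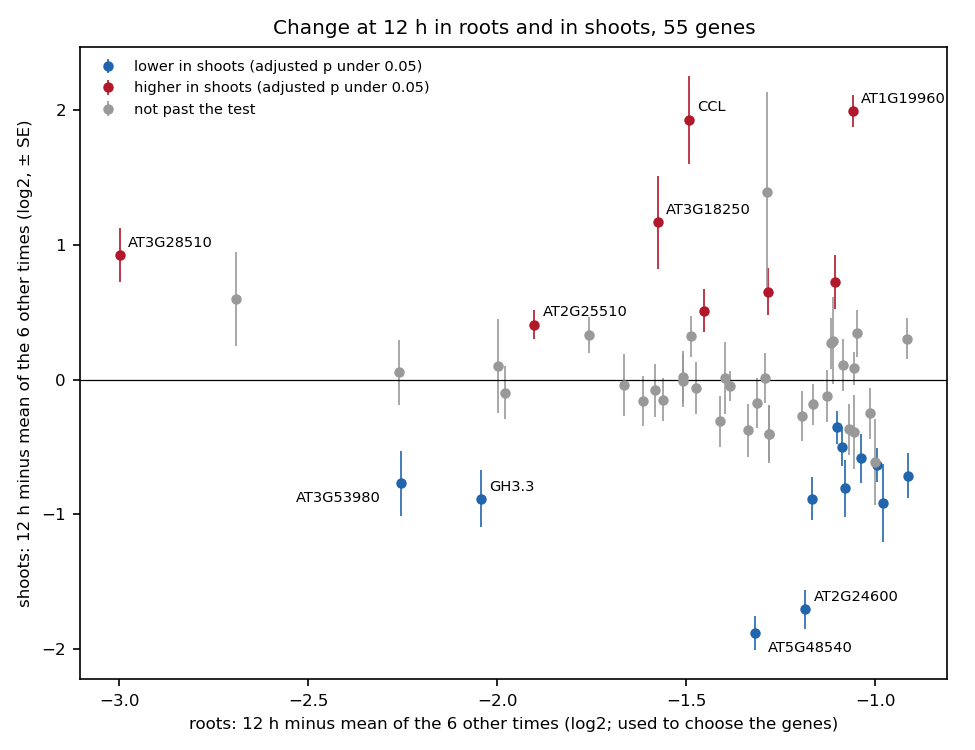
Difference of 12 h from the mean of the 6 other times in roots (horizontal, used to choose the genes) and in shoots (vertical, ± SE), in log2(signal + 10), for the 55 genes; blue and red points passed the limma test in shoots. All lie left of -0.91 in roots, while 12 were lower and 8 higher in shoots.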

How the data were processed

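The authors deposited a linear intensity for each probe set on each array. It was computed with MAS5, according to the submitters' processing notes, whose version and genome build are not given in the sources used here. The mean signal without its extremes was 100.007 to 100.01 on each array, so the intensities were already scaled and were used as deposited; the number of arrays limits the precision. Probe sets were named from the platform annotation, in which 13513 have 1 gene, 503 several and 8794 are unnamed here; 13436 matched the TAIR10.1 RefSeq table, used for names and gene order. It gives 45 of the 55 genes by locus only, and their families are background knowledge. No coordinates or sequences are given.

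Signals were taken to log2(signal + 10), which understates changes of weak genes. The 64 control probe sets were left out, and 16261 that exceeded the array's 40th percentile in both replicates of some group were tested; all 55 genes passed, through their 24 h roots level. limma 3.58.1 in R 4.3.3 fitted 1 mean per tissue and time on 28 arrays (14 residual degrees of freedom, eBayes with trend and robust), and was tested on simulated data. Calls are at a Benjamini-Hochberg adjusted p under 0.05 over all probe sets tested. The genes, lists and groups by role were chosen with earlier results of these data known. Genes named with values were the 12 with the largest distance, those called in shoots, members of a list or a shared family, the 6 with the highest root signal and those nearest the limit; a few others named for their group were chosen after their values were seen. Alternatives were other offsets, quantile normalization, other filters and thresholds, eBayes without trend and robust, the shoot arrays alone, the replicate number as a block, each array left out, and shoots without 24 h. Same-numbered arrays did not deviate together: over 91 pairs of groups the correlation of their deviations was -0.275 to 0.188, with 10 above 0.1. A list gene counts as measured only where a probe set named for it alone passed the filter. Unnamed probe sets and those with several genes were not looked up. By this count no gene was measured of the morning clock, nitrogen, phosphate starvation, aquaporin, heat shock, endodermis, xylem, phloem and root cap lists.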

Additional observations from a re-analysis of the deposited data

Results flagged for a closer look

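For AT3G28510 and AT2G25510 both 12 h arrays lay below every other array in roots and above every other array in shoots. The differences from the mean of the other times were -2.999 (log2) in roots and 0.93 in shoots for AT3G28510, and -1.90 in roots and 0.41 in shoots for AT2G25510. The shoot signals of AT3G28510 at 12 h, 8.81 and 15.7, were below the 40th percentile of the arrays, and its shoot call ended without replicate 2 at 12 h (limma adjusted p = 0.0889). That of AT2G25510 ended without either 12 h shoot array (limma adjusted p = 0.0532 and 0.11). The difference between the tissues was not tested, because the root values chose the genes. With 2 arrays a group, no array could be called an outlier within its group.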

How the results depend on the processing

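The number of genes chosen, 55, was 124 with a limit of 0.5 and 14 with a limit of 1; it was 78 with log2(signal + 1), 54 with the 25th percentile of all signals (10.72) as the offset, 61 after quantile normalization (52 of the 55 among them) and 62 with no minimum at 24 h. With each root array left out it was 44 to 93.

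In shoots the 12 genes lower and 8 higher at 12 h were 7 to 13 and 2 to 9 with each shoot array left out, and over all probe sets 1208 to 2118 were lower and 1233 to 2477 higher, against 1987 and 2276. A group with 1 array left is assumed to vary like the other groups. The median change of the 55 was -0.106 to -0.032, and 31 to 35 passed the F-test. Under the other alternatives 11 to 14 were lower, 8 or 9 higher, and no change turned its direction. The calls of AT5G48540, AT2G24600, AT1G51400, PSAN, AT1G19960 and CCL were kept with any 1 shoot array left out. AT5G62350 was not called after quantile normalization (-0.30, adjusted p = 0.0782) or without trend and robust (0.0501), nor AT5G06730 with the shoot arrays alone (0.0715). With the replicate number as a block, which the check of pairing did not bear out, 12 were lower and 8 higher, and over all probe sets 1953 and 2235. Signals under the 40th percentile limit what can be said of weak genes.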

Other observations

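The lists not described above gave few measured genes, none of them among the 55. Over all probe sets 12.2% were lower and 14% higher in shoots at 12 h. Of 4 measured cold and dehydration genes 3 were lower in shoots at 12 h, with a median change of -1.62 (log2) in shoots and a median difference of -0.16 in roots. Of 2 evening clock genes 1 was lower and 1 higher in shoots, and the median was 0.97 in shoots and 0.82 in roots. Of 3 chlorophyll synthesis genes 2 were higher in shoots, with medians of 0.45 in shoots and -0.16 in roots. The 2 measured genes each of jasmonate, sulfate uptake and phenylpropanoid synthesis had root medians of -0.11, 0.04 and -0.28 and shoot medians of -0.85, -0.12 and -0.06. The single measured genes had root differences of 0.71 for glucosinolate synthesis, 0.26 for iron, 0.01 for sugar starvation, 0.64 for light signalling, 0.78 for low oxygen and -0.05 for the reference genes.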
